A study of Homo sapiens with 18 samples.

Results

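Replication-dependent histone genes encode the histones that package newly copied DNA. The members were chosen by symbol, as H2AC, H2BC, H3C or H4C followed by a number or as H1-1 to H1-5, without pseudogenes. This gave 69 of the 57500 genes in the files, of which 5 encode linker histone H1, 17 H2A, 19 H2B, 13 H3 and 15 H4. The cells were 2 human cancer lines that stably expressed dCas9-KRAB, a nuclease-dead Cas9 fused to a transcriptional repressor. RNA of both was sequenced. These were ES8, a Ewing sarcoma line, and Rh30, an alveolar rhabdomyosarcoma line. In each line, parental cells received a control guide (sgCTL) or a guide against *DNAJC17*, a J-domain co-chaperone (sgDNAJC17). A further group, ΔRRM, stably expressed 3xFLAG-tagged DNAJC17 without its RNA recognition motif from an EF1 promoter and received sgDNAJC17. All cells were kept in puromycin for 72 h. Each of the 6 groups had 3 replicates (A, B and C) that were plated in triplicate, so p-values measure the spread between such samples. By the study's methods, cells given such a transgene vector were also selected in hygromycin. No ΔRRM library with sgCTL was analysed here, so the effects of the transgene, of its hygromycin selection and of the guide cannot be told apart in the ΔRRM groups.

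These genes lie in clusters and are transcribed mainly while DNA is copied, in S phase. Their mRNAs normally end just after a short stem-loop in place of a poly(A) tail. The stem-loop is bound by SLBP and the pre-mRNA is cut with the help of the U7 snRNP, while some of the genes also give polyadenylated RNAs that run past the stem-loop. The libraries here were made from poly(A)-selected RNA, so they hold mainly RNA with a tail. In bulk RNA, fewer cells in S phase and less histone mRNA per cell cannot be told apart.

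Of the 69 members, 64 had a transcript in GENCODE 44 (GRCh37 coordinates), and 63 of these held a histone stem-loop after the stop codon. The exception was *H2BC12L*. The stem-loop began 22 to 67 bases after the stop codon, with a median of 35, and 10 different 16-base forms occurred, the commonest in 38 members. Those of the members on which the results turn are shown 5′ to 3′ on the strand of the mRNA, since they mark where the usual mRNA ends. Capitals mark the 16-base stem-loop and lower case its neighbours.
H2BC12: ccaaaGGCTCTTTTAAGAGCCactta
H2BC21: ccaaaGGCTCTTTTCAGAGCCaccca
H2AC25: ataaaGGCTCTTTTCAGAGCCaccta
H3C8: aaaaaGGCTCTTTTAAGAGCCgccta
H2BC13: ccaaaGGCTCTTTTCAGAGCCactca
H1-2: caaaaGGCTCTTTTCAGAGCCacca
H2AC20: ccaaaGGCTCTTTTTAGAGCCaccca
H2AC6: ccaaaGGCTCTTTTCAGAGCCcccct
H4C3: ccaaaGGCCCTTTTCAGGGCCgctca
*H2BC21*, *H2AC25*, *H2BC13*, *H1-2* and *H2AC6* carried the commonest form, while *H2AC20* was the only member with its form. In 12 members a transcript was annotated to run over 100 bases past the stem-loop, among them *H2BC21* (1729 bases), *H2AC6* (1128 bases) and *H2AC25* (1110 bases). For *H2BC12*, *H2BC13*, *H3C8*, *H1-2*, *H2AC20* and *H4C3* no annotated transcript with the stem-loop ran more than 4 or 5 bases past it.

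Library totals ran from 35342393 to 48245989 counts. The targeted gene *DNAJC17* had 559 to 625 counts in ES8 sgCTL and 59 to 77 in ES8 sgDNAJC17, and 461 to 522 and 81 to 113 in Rh30. In the ΔRRM libraries, which also express the transgene, it had 13295 to 14449 counts in ES8 and 9849 to 13947 in Rh30. Levels are given as CPM scaled by edgeR's TMM method. The 8 Ewing sarcoma markers summed to 397 to 457 CPM in ES8 and at most 0.446 CPM in Rh30, and the 8 rhabdomyosarcoma markers to 3040 to 4828 CPM in Rh30 and 63.5 to 95.0 CPM in ES8. *RN7SK*, an abundant RNA without a poly(A) tail, had 0 to 6 counts per library. Replicate A of sgDNAJC17 differed more from B and C than they did from each other in both lines (chi-square per degree of freedom of 27.45 and 31.5 against 2.63 in ES8, and 16.0 and 28.7 against 7.16 in Rh30). The ES8 ΔRRM replicates also lay apart, at 9.08 to 31.8. Without ES8 sgDNAJC17 A, 3 members were higher and 3 lower in the ES8 knockdown, and without Rh30 sgDNAJC17 A, 5 were higher and 0 lower in the Rh30 knockdown. Over all genes, these fits called 7994 of 17652 and 6500 of 15705 in either direction. With all 6 libraries, 2336 genes were higher and 2365 lower of 17143 in ES8, and 2473 and 2501 of 15391 in Rh30.

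The members were scarce in these libraries. All 69 together had 3765 to 6171 counts per library, 5 had no count in any library (*H2BC1*, *H3C4*, *H4C7*, *H2AC15* and *H4C13*), and 16 had at most 10 counts over the 18 libraries. Of the 5, *H3C4* and *H2AC15* lie wholly within exons of other annotated genes, so their reads may not have been assignable. *H2BC12*, an H2B gene, held the largest share of any 1 member, with 45.8% ± 1.44 (SD, n = 3) of the summed CPM in ES8 sgCTL and 26.0% ± 0.936 (SD, n = 3) in Rh30 sgCTL. As RPKM (CPM per 1000 bases of exon, mean of all 18 libraries of both lines), *H2BC12* stood at 106. The next levels were 12.1 for *H1-2*, 11.9 for *H2AC20*, 9.62 for *H2BC5* and 7.61 for *H2AC6*, followed by 5.00 for *H4C9*, 2.99 for *H2BC11* and 2.61 for *H2AC25*. The highest H3 gene was lower, with 1.33 for *H3C13*, 1.02 for *H3C2* and 0.520 for *H3C1*. Of the remaining leading genes of their class, *H4C3* had an RPKM of 1.08, *H4C4* 0.788, *H1-4* 0.471 and *H1-5* 0.224. The order differed between the lines. In sgCTL the RPKM of *H1-2*, *H2AC20* and *H2BC5* was 6.66, 4.15 and 9.23 in ES8 and 12.9, 14.7 and 11.1 in Rh30. In ES8 sgCTL, *H4C9* (5.62) and *H2AC6* (4.45) stood above *H2AC20*, and in Rh30 sgCTL they stood below it (3.47 and 8.19). The order of genes by RPKM depends on their annotated exonic lengths, which were 390 bases for *H2AC20*, 1668 for *H2AC6* and 1294 for *H4C9*. In counts over the 3 Rh30 sgCTL libraries, *H2AC6* (1737) stood above *H2AC20* (730) and *H4C9* (570) below it. *H2AC25* had an RPKM of 3.98 in ES8 sgCTL and 0.035 in Rh30 sgCTL.

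**Figure D1:**
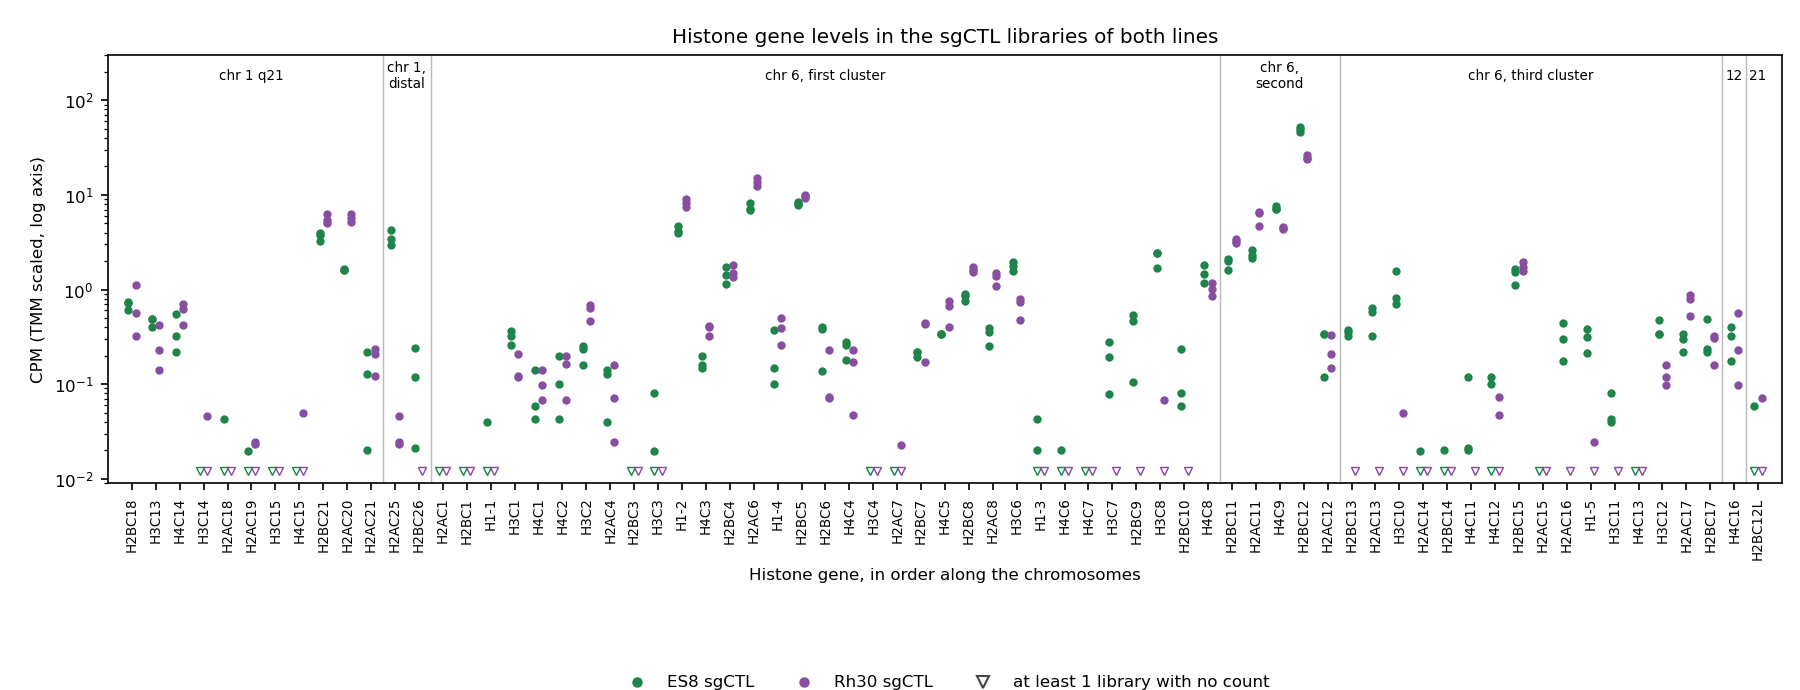
CPM (log axis) of each of the 69 histone genes in the 3 sgCTL libraries of ES8 (green) and Rh30 (purple), in order along the chromosomes, with open triangles where at least 1 library had no count. *H2BC12* stood highest in both lines, and runs of neighbouring genes on chromosome 6 had counts in ES8 and almost none in Rh30.

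The sgCTL libraries of the lines were compared to ask which histone genes each line uses. Rh30 was higher than ES8 for 13 members and lower for 13 of the 35 tested, 37.1% in each direction, where 42.0% of 17925 genes were higher and 45.5% lower. Past 2-fold, 6 members were higher (22.2% of all genes) and 10 lower (28.7% of all genes). H2A genes stood mainly on the higher side and H3 genes on the lower. The H2A genes summed to 27.9 ± 3.02 CPM in Rh30 and 16.9 ± 1.55 CPM in ES8, with 5 higher and 2 lower of 8 tested, and the H3 genes to 1.86 ± 0.24 CPM and 6.63 ± 0.62 CPM (SD, n = 3), with 1 higher and 6 lower of 7 tested. A gene can pass the filter on low counts through 1 group alone. Of the H3 genes called lower, *H3C1*, *H3C8*, *H3C10*, *H3C12* and *H3C13* passed it only through ES8. *H3C2*, the H3 gene called higher, passed it only through Rh30. The numbers of H3 genes called in each direction thus depend on the filter. *H2AC20* had 1.60, 1.62 and 1.64 CPM in ES8 sgCTL A, B and C and 5.19, 6.31 and 5.71 CPM in Rh30, a log2 fold change of 1.80 (SE 0.14, edgeR adjusted p = 1.61e-15). *H2AC6* had 8.24, 6.94 and 7.07 CPM in ES8 and 12.5, 14.9 and 13.6 CPM in Rh30 (log2 fold change 0.85, SE 0.09, edgeR adjusted p = 1.5e-11). *H2AC11* had 2.63, 2.17 and 2.32 CPM in ES8 and 4.70, 6.63 and 6.49 CPM in Rh30 (log2 fold change 1.30, SE 0.14, edgeR adjusted p = 1.85e-11). For these 3 genes every Rh30 library lay above every ES8 library. How many of all genes had groups without overlap was not computed, in this comparison or in those below. The most abundant gene, *H2BC12*, went the other way, with 52.1, 49.9 and 46.7 CPM in ES8 and 24.0, 24.7 and 26.2 CPM in Rh30 (log2 fold change -1.02, SE 0.06, edgeR adjusted p = 1.31e-19). Batch of culture and line cannot be told apart in this comparison.

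Some members were counted in ES8 and near absent in Rh30. With a limit of 3 counts per library, 12 members passed it in some ES8 library and in none of the 9 Rh30 libraries, 1 (*H2AC1*, at most 4 counts) did the reverse, 39 passed it in both lines and 17 in neither. These 12 lay in 4 places. On chromosome 6 of GRCh38, 4 lay next to each other from *H3C7* to *H2BC10* (*H3C7*, *H2BC9*, *H3C8* and *H2BC10*), 1 was *H3C3* (6 counts over the 9 ES8 libraries, at most 4 in any), and 6 lay in the cluster farthest from the short-arm end (*H2BC13*, *H2AC13*, *H3C10*, *H2AC16*, *H1-5* and *H3C11*). The twelfth was *H2BC26* on the long arm of chromosome 1, beside *H2AC25*, which had 1847 counts over the ES8 libraries and 14 over the Rh30 libraries. *H3C8* had 122, 79 and 124 counts in ES8 sgCTL and 0, 3 and 0 in Rh30 sgCTL. *H2AC13* had 75 counts over the 3 ES8 sgCTL libraries and 0 over those of Rh30, which makes it at least 21.5-fold lower in Rh30 against a floor of 3 counts over the group. Against the same floor, *H2BC9* was at least 15.7-fold, *H2BC13* at least 14.9-fold and *H2AC16* at least 12.9-fold lower. In *H2AC25*, the sgCTL levels of 4.27, 2.96 and 3.45 CPM in ES8 and 0.0246, 0.0457 and 0.0235 CPM in Rh30 gave a log2 fold change of -6.73 (SE 0.36, edgeR adjusted p = 4.97e-21). *H2AC25* passed the filter on low counts only through ES8, and its fold change rests on 1, 2 and 1 counts in Rh30 sgCTL. Neighbouring genes were counted in both lines, among them *H4C8* (219 counts in ES8 sgCTL and 128 in Rh30 sgCTL) and *H2BC15* (212 and 220 counts). A gene copy number was not measured here.

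Summed over all members, the level was highest in the ΔRRM group of both lines. No test was run on the sums. They were 108 ± 4.20 CPM in ES8 sgCTL, 117 ± 11.5 CPM in ES8 sgDNAJC17 and 127 ± 4.17 CPM in ES8 ΔRRM (SD, n = 3). In Rh30 they were 96.2 ± 2.86 CPM in sgCTL, 106 ± 4.33 CPM in sgDNAJC17 and 129 ± 7.30 CPM in ΔRRM. In both lines every ΔRRM library lay above every sgCTL library, while ES8 sgDNAJC17 spanned 110 to 130 CPM against 106 to 113 CPM in sgCTL. In Rh30 the H1 genes (8.69, 10.6 and 15.2 CPM in sgCTL, sgDNAJC17 and ΔRRM) and the H2A genes (27.9, 30.8 and 46.8 CPM) differed most between the groups, and the H2B genes less (49.9, 54.6 and 53.8 CPM). The Rh30 H1 sum is mainly that of *H1-2*, with 304, 398 and 353 counts in sgCTL beside 16, 22 and 11 for *H1-4*. Of the 5 H1 genes, 3 had at most 3 counts in every Rh30 library. Without TMM the Rh30 sums were 92.0, 98.6 and 107 CPM.

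**Figure D2:**
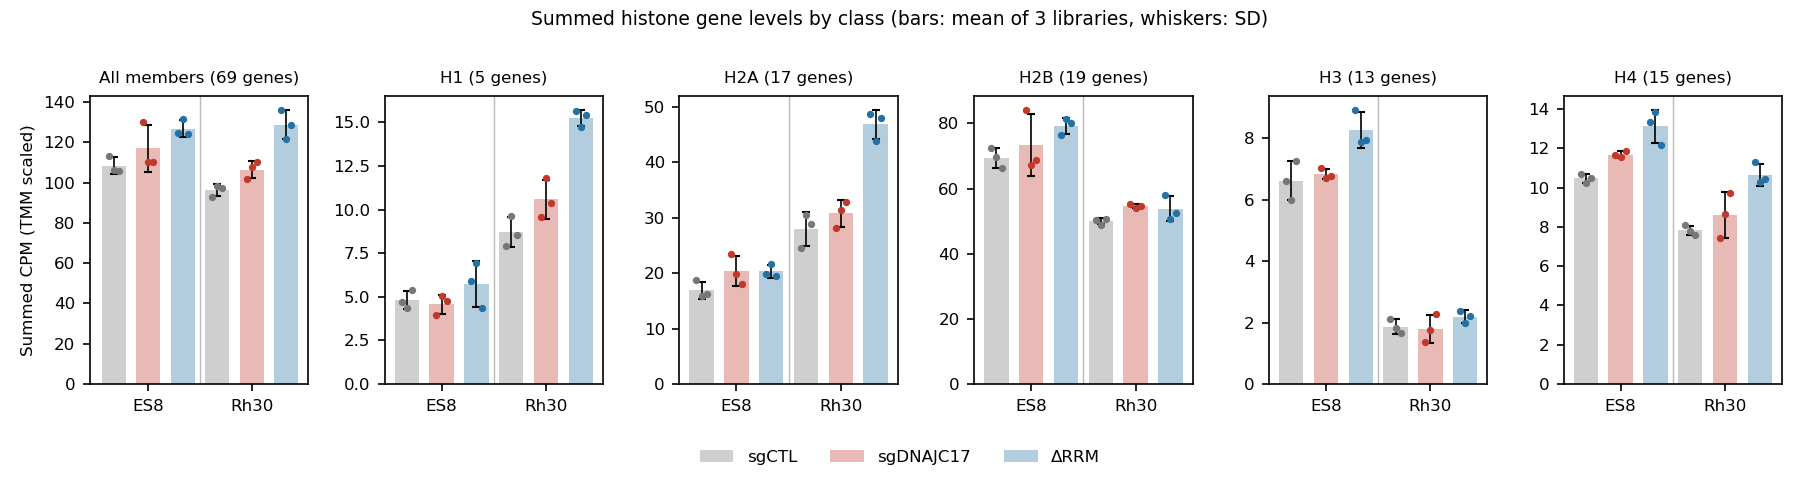
Summed CPM of all 69 histone genes and of each class in the 6 groups, with bars for the mean of 3 libraries, whiskers for the SD and points for the libraries. The H1 and H2A sums of Rh30 ΔRRM lay above all other Rh30 libraries, while the H2B sums of the Rh30 groups lay close together.

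The knockdown was compared with sgCTL in each line to ask what loss of *DNAJC17* does to these mRNAs. In ES8, 39 of the 69 members could be tested. *H2BC21*, *H2AC25* and *H2BC18* rose and *H2BC13* and *H3C8* fell at an adjusted p under 0.05, so 3 were higher (7.69%) and 2 lower (5.13%), where 13.6% of all 17143 genes tested were higher and 13.8% lower. Only *H2BC13* changed 2-fold (0.286% of all genes were 2-fold lower). It passed the filter on low counts only through sgCTL, the group where it was high, so its call depends on the filter. The median log2 fold change of the 39 was 0.13, against -0.016 for all genes, with 23 above 0 and 16 below.

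*H2BC21*, an H2B gene on chromosome 1 (GRCh38, minus strand, 149884459 to 149886652), had the firmest change. It stood at 3.79, 3.92 and 3.29 CPM in ES8 sgCTL, at 6.24, 6.53 and 6.51 CPM in sgDNAJC17 and at 4.72, 5.03 and 4.88 CPM in ΔRRM, so the 3 groups did not overlap. The knockdown gave a log2 fold change of 0.79 (SE 0.11, edgeR adjusted p = 0.00104), and it was called in all 6 fits that left out 1 library. *H2AC25*, an H2A gene on chromosome 1 (minus strand, 228456979 to 228457873), had 4.27, 2.96 and 3.45 CPM in sgCTL and 6.13, 6.04 and 4.84 CPM in sgDNAJC17. Every knockdown library lay above every sgCTL library (log2 fold change 0.64, SE 0.15, edgeR adjusted p = 0.0126), and the call was lost without sgCTL B (0.53, adjusted p = 0.055) or sgCTL C (0.62, adjusted p = 0.0554). *H2BC18*, which shares 5.54% of its exonic bases with *FCGR1A*, had 0.738, 0.724 and 0.611 CPM in sgCTL and 0.978, 1.07 and 1.26 CPM in sgDNAJC17 (log2 fold change 0.65, SE 0.22, edgeR adjusted p = 0.0492). Its groups did not overlap either, but its call held only with all 6 libraries or without sgDNAJC17 A, with log2 fold changes of 0.55 to 0.73 over the 6 fits. It was also lost in 7 of the 9 other fits, the replicate block and DESeq2 among them (0.59 to 0.68 over the 9).

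*H3C8* and *H2BC13* had at most 3 counts in any Rh30 library. *H3C8* (chromosome 6, minus strand, 26269405 to 26271815) fell from 2.43, 1.68 and 2.44 CPM in ES8 sgCTL to 1.35, 0.994 and 1.51 CPM in sgDNAJC17 (log2 fold change -0.79, SE 0.21, edgeR adjusted p = 0.0210). The call was lost without sgCTL A (-0.71), sgCTL C (-0.71) or sgDNAJC17 B (-0.64). *H2BC13* (chromosome 6, minus strand, 27807444 to 27807931) fell from 18, 15 and 19 counts to 7, 5 and 2 counts (log2 fold change -1.59, SE 0.45, edgeR adjusted p = 0.0270), and its call held only with all 6 libraries or without sgDNAJC17 A, with log2 fold changes of -2.03 to -1.18. For both genes all knockdown libraries were below all sgCTL libraries, but the share of all genes without overlap was not computed. The abundant *H2BC12* overlapped, with 52.1, 49.9 and 46.7 CPM in sgCTL and 60.9, 47.0 and 48.3 CPM in sgDNAJC17 (log2 fold change 0.05, SE 0.10, edgeR adjusted p = 0.771).

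In Rh30, 26 members could be tested. *H1-2*, *H2BC12* and *H4C3* rose, which is 3 of 26 (11.5%) where 16.1% of all 15391 genes tested were higher, and 0 members fell where 16.2% of all genes were lower. In the same direction, 0 members had an unadjusted p under 0.05 and DESeq2 called 0 lower. *H4C3* alone was 2-fold higher (0.767% of all genes). The median log2 fold change was 0.15, against 0.0045 for all genes, with 20 above 0 and 6 below. With the replicate letter as a block, 4 members were higher and 0 lower, where 7235 of all 15391 genes were called in either direction. *H4C3*, an H4 gene on chromosome 6 (plus strand, 26103876 to 26104310), had 13, 18 and 17 counts in sgCTL and 23, 28 and 41 counts in sgDNAJC17 (log2 fold change 1.05, SE 0.34, edgeR adjusted p = 0.0304). *H1-2*, a linker histone gene, had 7.48, 9.10 and 8.29 CPM in sgCTL and 9.19, 11.3 and 9.89 CPM in sgDNAJC17 (log2 fold change 0.30, SE 0.11, edgeR adjusted p = 0.0479). *H2BC12* had 24.0, 24.7 and 26.2 CPM in sgCTL and 28.7, 28.5 and 29.98 CPM in sgDNAJC17 (log2 fold change 0.23, SE 0.07, edgeR adjusted p = 0.0189). The groups did not overlap for any of the 3, and the share of all genes without overlap was not computed. Each call was lost in most fits that left out 1 library. Such fits also called fewer of all genes, except that without sgDNAJC17 A (3066 to 3865, against 2473 higher and 2501 lower with all 6 libraries). The *H1-2* call held only without sgCTL B or sgDNAJC17 A (log2 fold changes of 0.21 to 0.37 over the 6 fits), that of *H2BC12* only without sgCTL C or sgDNAJC17 A (0.21 to 0.27) and that of *H4C3* only without sgDNAJC17 A (0.74 to 1.30), and without sgDNAJC17 B or C 0 members were called. In the fit of all 18 libraries none of the 3 was called (edgeR adjusted p = 0.125, 0.0876 and 0.0851 for *H1-2*, *H2BC12* and *H4C3*). *H2BC21*, which rose in ES8, had 6.30, 5.44 and 5.01 CPM in Rh30 sgCTL and 6.0, 5.98 and 5.47 CPM in sgDNAJC17, which overlap (log2 fold change 0.08, SE 0.12, edgeR adjusted p = 0.662).

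**Figure D3:**
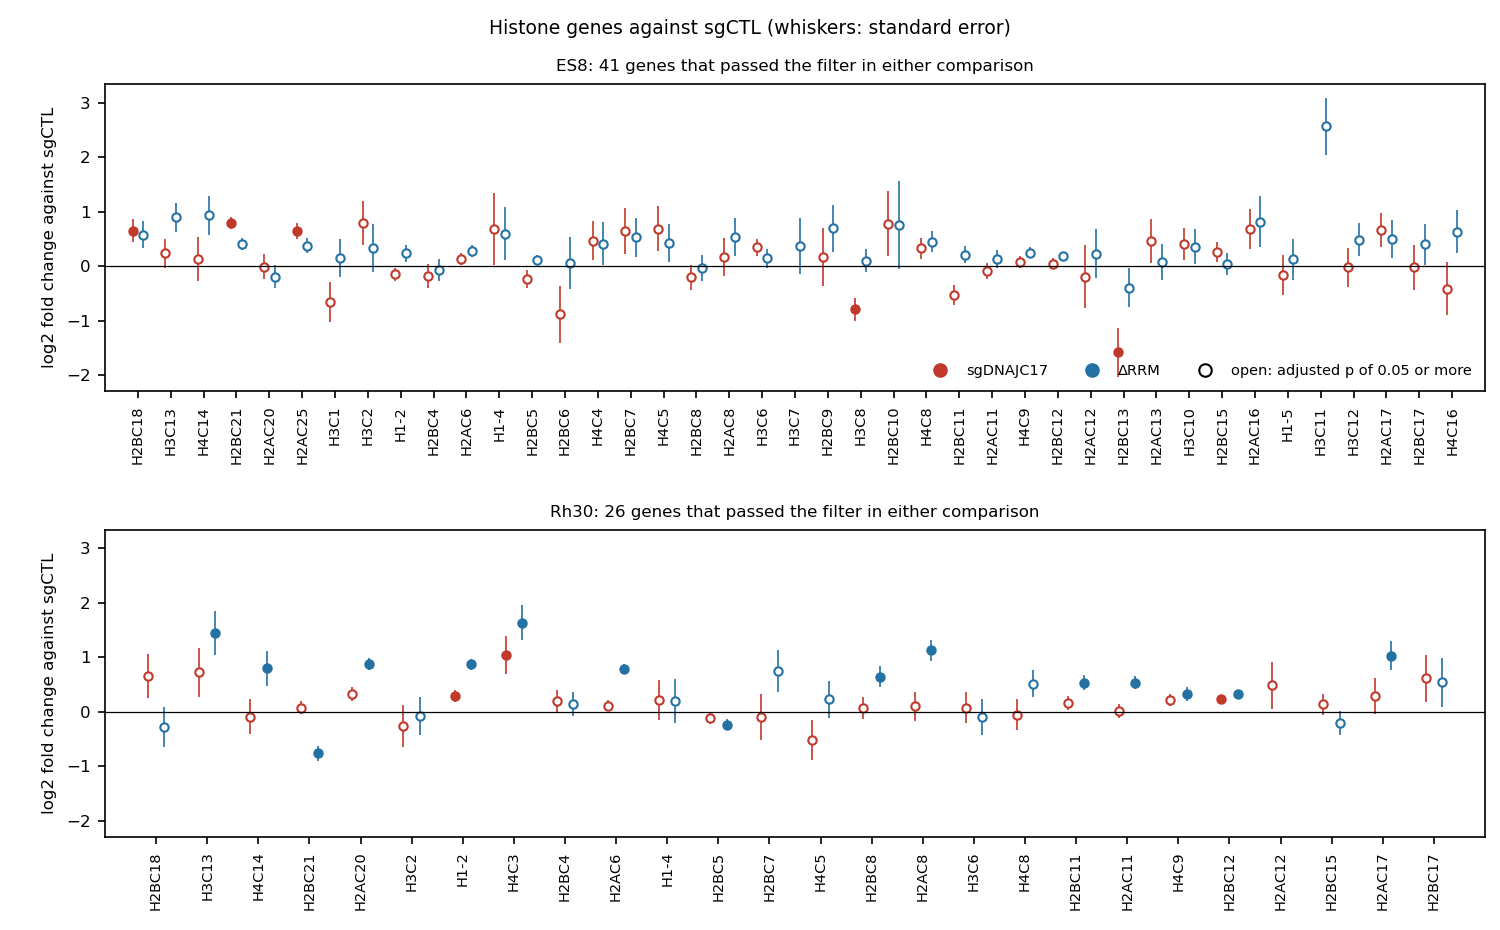
Log2 fold change against sgCTL of each histone gene that passed the filter on low counts, for sgDNAJC17 (red) and ΔRRM (blue), in ES8 (top, 41 genes) and Rh30 (bottom, 26 genes), with whiskers for the standard error and filled points at an adjusted p under 0.05. The red and blue points of a line share their 3 sgCTL libraries. Filled blue points appear in Rh30 and in ES8 there are none.

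The ΔRRM cells were compared with the sgCTL cells to ask how far a DNAJC17 without its RNA recognition motif keeps these mRNAs at the control level once the endogenous gene is silenced. Both this comparison and the knockdown use the same sgCTL libraries. In ES8, edgeR called 0 of 41 members higher or lower, where 0.0930% of all 17199 genes were higher and 0.0814% lower. At an unadjusted p under 0.05, 10 members were higher and 0 lower, and DESeq2 called 0, with no adjusted p for 22 of the 41. The median log2 fold change of the 41 was 0.36, against -0.00027 for all genes, with 37 above 0 and 4 below. *H2BC21* stood 0.41 above sgCTL on the log2 scale (SE 0.12, edgeR adjusted p = 0.235) and *H2AC25* 0.38 above it (SE 0.14, edgeR adjusted p = 0.307), while *H3C8* (0.10, SE 0.21, edgeR adjusted p = 0.853) and *H2BC13* (-0.39, SE 0.36, edgeR adjusted p = 0.633) overlapped with sgCTL. *H3C11*, chosen after its values were seen, had 4, 2 and 2 counts in sgCTL, 8, 2 and 11 in sgDNAJC17 and 21, 12 and 13 in ΔRRM (log2 fold change 2.56 against sgCTL, SE 0.53, edgeR adjusted p = 0.0974). It passed the filter on low counts only through ΔRRM, the group where it was high, so this p-value does not stand as support for a rise.

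Against the ES8 knockdown, ΔRRM was higher for 2 of 39 members and lower for 0, where 7.35% of all 17099 genes were higher and 7.36% lower. In the lower direction, 1 member had an unadjusted p under 0.05 and DESeq2 called 0. *H3C8* stood at 2.63, 2.79 and 1.66 CPM in ΔRRM against 1.35, 0.994 and 1.51 CPM in the knockdown (log2 fold change 0.90, SE 0.24, edgeR adjusted p = 0.0254). *H2BC11* stood at 2.34, 2.03 and 2.33 CPM in ΔRRM, 1.24, 1.61 and 1.21 CPM in the knockdown and 2.02, 1.62 and 2.11 CPM in sgCTL (log2 fold change 0.75 against the knockdown, SE 0.19, edgeR adjusted p = 0.0220). Neither overlapped with the knockdown, but the share of all genes without overlap was not computed. The *H3C8* call was lost without sgDNAJC17 B (0.73), ΔRRM A (0.81) or ΔRRM B (0.76), and that of *H2BC11* without sgDNAJC17 C (0.67), ΔRRM A (0.71) or ΔRRM C (0.71). *H2BC21* was 0.37 lower on the log2 scale in ΔRRM than in the knockdown (SE 0.12, edgeR adjusted p = 0.0534), with no overlap between the groups.

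In Rh30, ΔRRM differed from sgCTL at 15 of 25 members tested. Of these, 13 were higher (52.0%) and 2 lower (8.0%), where 33.8% of all 15442 genes were higher and 35.0% lower. Past 2-fold, 4 members were higher (*H2AC8*, *H2AC17*, *H3C13* and *H4C3*), where 6.66% of all genes were. Of these, *H3C13* had 17, 10 and 6 counts in sgCTL and 30, 15 and 27 in ΔRRM, and passed the filter on low counts only through ΔRRM. Its groups overlapped, with 0.419 CPM in sgCTL A and 0.391 CPM in ΔRRM B. The median log2 fold change of the 25 was 0.53, against -0.013 for all genes, with 19 above 0 and 6 below. TMM factors of the Rh30 ΔRRM libraries were 0.819 to 0.853, and with library totals in place of TMM the median of all genes shifted by -0.25 on the log2 scale and 9 members were higher and 2 lower. With offsets for GC content and length, 8 were higher and 2 lower. Each of the 15 kept its direction under these scalings and offsets.

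All 5 H2A genes tested rose, with 1 of 2 H1, 3 of 10 H2B, 1 of 3 H3 (*H3C13*) and 3 of 5 H4 genes. *H1-2* had 7.48, 9.10 and 8.29 CPM in sgCTL and 15.1, 14.4 and 15.0 CPM in ΔRRM (log2 fold change 0.87, SE 0.09, edgeR adjusted p = 2.54e-12). *H2AC20* had 5.19, 6.31 and 5.71 CPM in sgCTL and 11.8, 8.78 and 10.5 CPM in ΔRRM (log2 fold change 0.88, SE 0.11, edgeR adjusted p = 3.08e-10). *H2AC6* had 12.5, 14.9 and 13.6 CPM in sgCTL and 23.6, 21.4 and 24.5 CPM in ΔRRM (log2 fold change 0.79, SE 0.08, edgeR adjusted p = 1.02e-12). No library of one group reached into the other for these 3, though the share of all genes without overlap was not computed. Each was called in all 6 fits that left out 1 library. With the offsets for GC content and length, the log2 fold change of *H2AC6* was 0.19 (adjusted p = 0.0240). *H2AC8* rose from 1.08, 1.37 and 1.48 CPM to 2.87, 2.68 and 2.87 CPM (log2 fold change 1.13, SE 0.19, edgeR adjusted p = 6.67e-07) and *H4C3* from 0.320, 0.412 and 0.399 CPM to 1.23, 1.02 and 1.23 CPM (log2 fold change 1.64, SE 0.33, edgeR adjusted p = 1.13e-05). *H2BC12* was 0.34 higher on the log2 scale (SE 0.07, edgeR adjusted p = 6.89e-05), a call lost with library totals in place of TMM (0.099, adjusted p = 0.268) and with the GC and length offsets (0.14). The other 7 called higher were *H2AC11*, *H2AC17*, *H2BC8*, *H2BC11*, *H3C13*, *H4C9* and *H4C14*, by 0.32 to 1.45 on the log2 scale. Of these, *H2AC17* shares 88.0% of its exonic bases with *H3C12*, *H4C14* was not called without sgCTL C, ΔRRM B or ΔRRM C (0.61 at the lowest) and *H4C9* not without sgCTL C or ΔRRM A (0.23 at the lowest). The calls of *H2BC8*, *H2BC11*, *H4C9* and *H4C14* were lost with the GC and length offsets (0.24, 0.092, 0.21 and 0.41), and those of *H2BC11*, *H4C9* and *H4C14* also with library totals (0.30, 0.087 and 0.56). *H4C9* was not called in the fit of all 18 libraries either (0.29, adjusted p = 0.0505).

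Both members that fell were H2B genes. *H2BC21* had 6.30, 5.44 and 5.01 CPM in Rh30 sgCTL and 3.12, 3.26 and 3.24 CPM in ΔRRM, with all ΔRRM libraries below all others of Rh30 (log2 fold change -0.76, SE 0.14, edgeR adjusted p = 1.46e-06), and its call held in all 6 fits that left out 1 library. *H2BC5* had 9.97, 9.38 and 9.78 CPM in sgCTL and 8.73, 7.40 and 8.06 CPM in ΔRRM (log2 fold change -0.23, SE 0.10, edgeR adjusted p = 0.0384), a call that, over the fits without 1 library, held only without sgCTL B or ΔRRM A (-0.28 to -0.17). It was lost with DESeq2, with its size factors and in the fit of all 18 libraries (-0.22, -0.22 and -0.27), and the fold change was larger with library totals (-0.47) and with the GC and length offsets (-0.72).

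Against the Rh30 knockdown, ΔRRM was higher for 9 of 26 members (34.6%) and lower for 2 (7.69%), where 29.4% of all 15309 genes were higher and 30.5% lower. *H2AC8* alone was 2-fold higher, where 4.42% of all genes were, with 1.20, 2.09 and 0.916 CPM in the knockdown (log2 fold change 1.02, SE 0.21, edgeR adjusted p = 2.35e-05). *H1-2* (log2 fold change 0.56, SE 0.11, edgeR adjusted p = 3.17e-06) and *H2AC6* (0.67, SE 0.10, edgeR adjusted p = 5.46e-09) were also above the knockdown in every library. *H2BC21* was lower than in the knockdown (-0.85, SE 0.14, edgeR adjusted p = 3.23e-07), and so was *H2BC18*, with 0.602, 0.495 and 0.478 CPM in ΔRRM and 0.669, 1.496 and 0.968 CPM in the knockdown (-0.96, SE 0.33, edgeR adjusted p = 0.01). Without sgDNAJC17 B, *H2BC18* was 0.61 lower and not called. With library totals in place of TMM 5 members were higher and 4 lower, and with the GC and length offsets 5 were higher and 3 lower.

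Other lists moved in the same Rh30 libraries. The 22 epithelial markers summed to 183 to 197 CPM in Rh30 sgCTL, 198 to 213 CPM in sgDNAJC17 and 242 to 269 CPM in ΔRRM, with 7 higher and 1 lower of 12 tested in ΔRRM against sgCTL and 6 higher and 1 lower in the knockdown. Of all genes, 33.8% were higher and 35.0% lower in ΔRRM and 16.1% and 16.2% in the knockdown. Among them, *CLDN7* and *RAB25* had no count in any Rh30 sgCTL library and were counted in some Rh30 ΔRRM library. The 8 rhabdomyosarcoma markers summed to 4729 to 4828 CPM in sgCTL, 4141 to 4577 CPM in sgDNAJC17 and 3040 to 3373 CPM in ΔRRM, with 7 of 8 lower in ΔRRM, beside 35.0% of all genes. The part of either in the histone values was not tested.

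**Figure D4:**
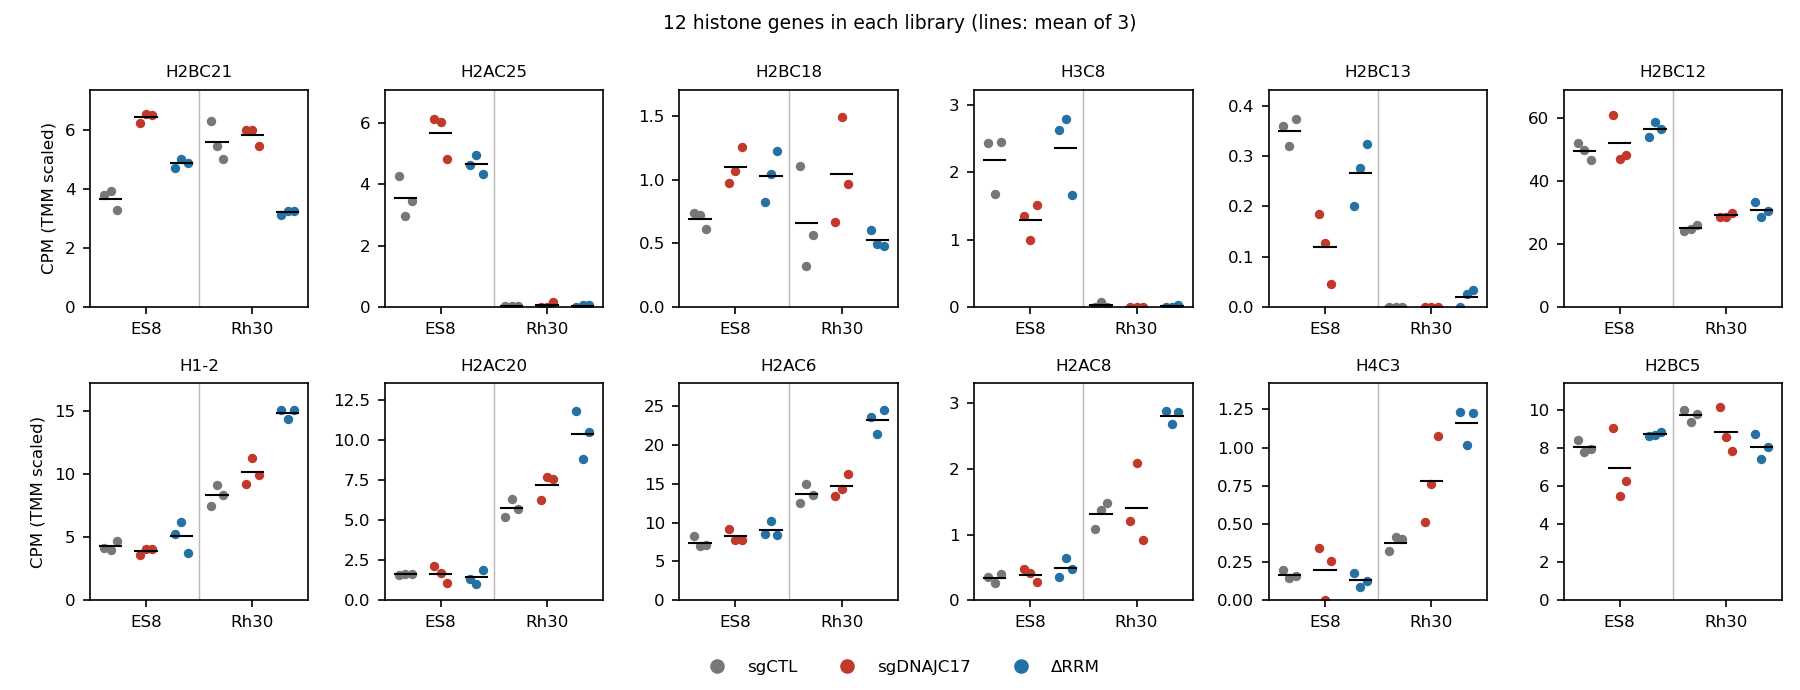
CPM of 12 histone genes in each library of the 6 groups (points; lines for the mean of 3, linear axes from 0). *H2BC21* was highest in the ES8 knockdown and lowest among Rh30 groups in ΔRRM, *H1-2*, *H2AC20*, *H2AC6* and *H2AC8* were highest in Rh30 ΔRRM, and *H2AC25*, *H3C8* and *H2BC13* were near 0 in all Rh30 groups.

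The interaction of line and condition asked whether a member responded differently in Rh30 than in ES8. For the knockdown, 1 of 40 members passed in the lower direction (2.5%, 4.55% of all 18899 genes) and 0 in the higher (5.23% of all genes), where 2 members had an unadjusted p under 0.05 and DESeq2 called 1, with no adjusted p for 19 of the 40. The response of *H2BC21* in Rh30 minus that in ES8 was -0.69 on the log2 scale (SE 0.17, edgeR adjusted p = 0.0130), and without ES8 sgCTL C the difference was -0.61 (adjusted p = 0.0518). For ΔRRM against sgCTL, 4 of 42 members passed in the higher direction (9.52%, 19.9% of all 18854 genes) and 2 in the lower (4.76%, 21.5% of all genes). *H4C3* (2.02, SE 0.56, edgeR adjusted p = 0.00537), *H2AC20* (1.08, SE 0.24, edgeR adjusted p = 0.000844), *H1-2* (0.64, SE 0.18, edgeR adjusted p = 0.00680) and *H2AC6* (0.52, SE 0.14, edgeR adjusted p = 0.00510) responded more in Rh30. *H2BC21* (-1.17, SE 0.18, edgeR adjusted p = 1.23e-05) and *H2BC5* (-0.34, SE 0.13, edgeR adjusted p = 0.0421) responded less or downward in Rh30. In ES8, *H4C3* had 10, 7 and 8 counts in sgCTL and 8, 4 and 6 in ΔRRM, and *H2AC20* had 1.60, 1.62 and 1.64 CPM in sgCTL and 1.34, 1.04 and 1.88 CPM in ΔRRM. With the GC and length offsets the *H2AC6* difference was 0.02 (adjusted p = 0.970), with library totals in place of TMM those of *H1-2* and *H2AC6* were not called, and the *H2BC5* call was lost without any 1 of ES8 sgCTL B or C, ES8 ΔRRM C, Rh30 sgCTL A or C and Rh30 ΔRRM B or C (-0.39 to -0.27 over the 12 fits).

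The members were also read by their annotated length. This is not a measure of transcripts that run past the stem-loop: *H3C8* and *H2BC18* are long in the files (2411 and 3196 bases), while no annotated transcript in which their stem-loop was found ran more than 5 and 6 bases past it. In the files, exonic lengths of the members ran from 297 to 5477 bases with a median of 503, 21 members exceeded 1000 bases and 13 had more than 1 exon block. The 21 longer genes held 29.7% of the summed CPM in ES8 sgCTL and 38.9% in Rh30 sgCTL. In the ES8 knockdown they had 2 higher and 1 lower of 17 tested (*H2BC21*, *H2BC18* and *H3C8*), with a median log2 fold change of 0.17, and the shorter genes 1 higher and 1 lower of 22, with a median of 0.017. In the Rh30 knockdown 0 of 12 longer genes passed edgeR's test, with 0 at an unadjusted p under 0.05 and medians of 0.071 for longer and 0.26 for shorter genes, of which 3 of 14 were higher. In Rh30 ΔRRM against sgCTL, 5 of 12 longer genes were higher and 1 lower (median 0.42), and 8 of 13 shorter genes were higher and 1 lower (median 0.55), beside 33.8% higher and 35.0% lower among all genes. In the knockdowns these shares were 13.6% and 13.8% in ES8 and 16.1% and 16.2% in Rh30. No difference between longer and shorter genes was tested. The 12 members annotated past the stem-loop summed to 20.01, 26.8 and 25.6 CPM in ES8 sgCTL, sgDNAJC17 and ΔRRM and to 22.0, 23.1 and 29.7 CPM in Rh30.

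Genes that make and destroy histone mRNA were read beside the members. Their counts, and those of the lists that follow, stand beside 13.6% of all genes higher and 13.8% lower in ES8 on knockdown, 16.1% and 16.2% for Rh30, and 33.8% and 35.0% in Rh30 ΔRRM against sgCTL. Of 19 genes for cutting the 3′ end of histone pre-mRNA, 9 rose and 1 fell in the ES8 knockdown and 8 rose and 1 fell in Rh30. The list also holds factors not particular to histone mRNA, such as cap-binding proteins, so these counts are not of histone processing alone. *ZNF473*, which joins the U7 snRNP to the cutting factors, rose from 37.8 ± 1.20 to 63.4 ± 1.49 CPM in ES8 (log2 fold change 0.72, SE 0.06, edgeR adjusted p = 0.000149) and from 36.1 ± 0.477 to 46.9 ± 2.5 CPM in Rh30 (0.39, SE 0.06, edgeR adjusted p = 0.000598). *NCBP2*, a cap-binding protein, rose by 0.47 on the log2 scale in ES8 (SE 0.07, edgeR adjusted p = 0.00146) and by 0.48 in Rh30 (SE 0.06, edgeR adjusted p = 0.000107). *SRRT*, a partner of the cap-binding complex, rose in ES8 (0.37, edgeR adjusted p = 0.00145), *CPSF2*, a subunit of the cleavage complex, fell in ES8 (-0.33, edgeR adjusted p = 0.0448) and *SYMPK*, its scaffold, fell in Rh30 (-0.38, edgeR adjusted p = 0.00364). *SLBP* itself stood at 99.6 ± 0.536 CPM in ES8 sgCTL and 92.4 ± 2.5 CPM in sgDNAJC17 (-0.13, SE 0.05, edgeR adjusted p = 0.0945) and at 102 ± 4.36 and 103 ± 6.08 CPM in Rh30 (0.02, SE 0.07, edgeR adjusted p = 0.819). The U7 snRNP proteins *LSM10* and *LSM11* did not pass the test in either line (log2 fold changes of -0.13 and -0.09 in ES8 and 0.23 and -0.05 in Rh30), and neither did *CASP8AP2*, a cofactor of the cut (0.20 and 0.01). Among *SLBP*, *ZNF473*, *LSM10*, *LSM11* and *CASP8AP2*, only *ZNF473* passed.

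Of 11 genes for histone gene transcription, 2 rose and 2 fell in the ES8 knockdown and 0 rose and 2 fell in Rh30, where 1 had an unadjusted p under 0.05 in the higher direction. *NPAT*, the cyclin E target that activates histone promoters, did not pass in either line (-0.02, SE 0.14, and -0.14, SE 0.10). *HINFP*, an activator of H4 genes, rose in ES8 (0.47, SE 0.08, edgeR adjusted p = 0.00234), and *E2F1* fell in both lines (-0.35, edgeR adjusted p = 0.00816, and -0.59, edgeR adjusted p = 5.75e-05). Of 21 genes for histone mRNA decay, 4 rose and 5 fell in ES8 and 8 rose and 6 fell in Rh30. *ERI1*, the exonuclease that trims the end of the stem-loop, was at -0.07 in ES8 (SE 0.10, edgeR adjusted p = 0.645) and rose by 0.25 in Rh30 (SE 0.06, edgeR adjusted p = 0.00868). *LSM4*, of the decapping ring, rose in both lines (0.32, edgeR adjusted p = 0.00549, and 0.21, edgeR adjusted p = 0.0316).

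Of 18 cleavage and polyadenylation genes, 4 rose and 3 fell in ES8 and 6 rose and 1 fell in Rh30. *CSTF2T* rose in both (0.53 and 0.23, edgeR adjusted p = 0.000365 and 0.00816) and *CPSF1* fell in both (-0.63 and -0.46, edgeR adjusted p = 0.000662 and 0.000960). Of the histone chaperones tested (19 in each line), 2 rose and 4 fell in ES8 and 2 rose and 8 fell in Rh30, among them *TONSL* in both (-0.44 and -0.54, edgeR adjusted p = 0.00350 and 0.00106). The replacement and variant histones, whose mRNAs carry a poly(A) tail and are made outside S phase too, had 4 of 11 higher and 0 lower in ES8 and 2 of 9 higher and 0 lower in Rh30, with 0 lower at an unadjusted p under 0.05 in either line. *H3-3A*, which encodes H3.3, rose in both (0.29, edgeR adjusted p = 0.00254, and 0.38, edgeR adjusted p = 0.00120), and *H2AJ* rose in ES8 from 6.32 ± 0.348 to 10.3 ± 0.8 CPM (0.68, SE 0.10, edgeR adjusted p = 0.00123). In Rh30 ΔRRM against sgCTL, 6 of 9 of these rose and 1 fell, with a median log2 fold change of 0.69.

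Of 40 S phase and DNA replication genes, 2 rose and 17 fell in the ES8 knockdown (median log2 fold change -0.18) and 4 rose and 11 fell in Rh30 (median -0.09). *CDC45*, of the replicative helicase, fell from 57.7 ± 1.22 to 39.2 ± 2.43 CPM in ES8 (-0.58, SE 0.07, edgeR adjusted p = 0.000523) and from 114 ± 4.47 to 91.4 ± 2.15 CPM in Rh30 (-0.30, SE 0.06, edgeR adjusted p = 0.00228). *POLD1*, the catalytic subunit of DNA polymerase delta, fell in both (-0.64, edgeR adjusted p = 0.00111, and -0.69, edgeR adjusted p = 5.06e-05), and *RPA2*, a single-strand binding protein, rose in both (0.31, edgeR adjusted p = 0.00347, and 0.35, edgeR adjusted p = 0.00432). In ΔRRM against sgCTL, edgeR called 0 of the 40 in ES8 (0 higher and 1 lower at an unadjusted p under 0.05) and 17 higher and 19 lower in Rh30, where 33.8% and 35.0% of all genes were. Of 30 G2-M genes, 5 rose and 8 fell in the ES8 knockdown and 3 rose and 5 fell in Rh30, and 17 rose and 6 fell in Rh30 ΔRRM. *BIRC5* rose in both knockdowns (0.41, edgeR adjusted p = 0.000768, and 0.28, edgeR adjusted p = 0.00729) and *CDC25B* fell in both (-0.43, edgeR adjusted p = 0.00491, and -0.50, edgeR adjusted p = 0.000215).

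RNAs made without a poly(A) tail were used to gauge the selection. The 11 of 18 such RNAs found in the files summed to 11.4 to 17.3 CPM over all libraries. The most counted were *MALAT1*, with 74 to 680 counts per library, and *SNORD17*, with 60 to 406. Of the 4 tested, 2 rose and 0 fell in each knockdown, with *SNORA73B* higher in both (1.13, SE 0.24, edgeR adjusted p = 0.00723, in ES8 and 0.72, SE 0.24, edgeR adjusted p = 0.0358, in Rh30). In the lower direction, 1 had an unadjusted p under 0.05 in ES8 and 0 in Rh30. Several members share bases with another gene or have a near-identical copy, and the library kit marks no strand, so their reads cannot be assigned with certainty: 14 share exonic bases with another gene, *H3C4*, *H2AC15* and *H2AC7* lie wholly or almost wholly within exons of another annotated gene (100%, 100% and 98.0%, *H2AC15* within *H2BC15*), and *H3C14* and *H3C15*, *H4C14* and *H4C15*, and *H2AC18* and *H2AC19* are such pairs.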

How the data were processed

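RNA-seq libraries of the 6 groups were made from poly(A)-selected RNA with a kit that does not mark strand. For each library the authors deposited a table of raw counts per gene. The submitters' processing notes name Trimmomatic 0.36, STAR 2.5.2b, featureCounts of Subread 1.5.2 and GRCh38, whereas the study's methods give another build, and the settings for overlapping and multi-mapping reads are not given in the sources used here. Members were paired by Ensembl identifier (61) or by position in RefSeq GRCh38.p14 (8), and 12 pseudogenes were left out. The members and lists were chosen with earlier results of these data known.

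The test on the raw counts was the two-sided quasi-likelihood test of edgeR 4.0.16 (R 4.3.3), after filterByExpr and TMM, with only the groups compared in each fit, or 4 groups for an interaction. P-values were adjusted over all genes tested by Benjamini-Hochberg, with calls at an adjusted p under 0.05. DESeq2 1.42.0, other scalings and filters, offsets for GC content and length, a replicate block and leaving out each library were alternatives. The named members were the 3 of highest RPKM per class, the 3 of smallest p per comparison and direction, and those changed 2-fold. On simulated counts for the ES8 knockdown (16937 genes), 56 of 67 genes changed 1.5-fold, 63 of 67 changed 2-fold and 66 of 66 changed 4-fold were called, with 5 false calls. The changed genes were drawn only from genes above a limit on mean counts, and all genes were given the same dispersion. How often a change is called at the low counts of most members, or with each gene's own spread, was therefore not tested. Same-lettered Rh30 sgCTL and sgDNAJC17 libraries deviated together (correlations of 0.203, 0.0720 and 0.0975 over all genes tested, and 0.753, 0.449 and 0.496 over genes above 10 CPM), and in no other comparison within a line were all 3 above 0.1. The labels do not say what a letter marks.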

Additional observations from a re-analysis of the deposited data

Results flagged for a closer look

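The response of 6 members differed between the lines by edgeR's interaction test. For the knockdown this was *H2BC21*, with a difference (Rh30 minus ES8, log2 scale) of -0.69 (SE 0.17, edgeR adjusted p = 0.0130). For ΔRRM against sgCTL the differences were -1.17 for *H2BC21*, 1.08 for *H2AC20*, 0.64 for *H1-2*, 2.02 for *H4C3*, 0.52 for *H2AC6* and -0.34 for *H2BC5*. In the knockdown interaction 0% of members tested were higher and 2.5% lower, beside 5.23% and 4.55% of all genes. In the ΔRRM interaction 9.52% of members were higher and 4.76% lower, beside 19.9% and 21.5% of all genes. Members thus passed less often than all genes. *H2BC21* was higher than sgCTL in the ES8 knockdown and lower than sgCTL in Rh30 ΔRRM. *H4C3* rests on 4 to 10 counts per ES8 library of sgCTL and ΔRRM. The part of depth, scaling, GC content or culture in these differences was not tested beyond the fits given under the alternatives.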

How the results depend on the processing

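Leaving out 1 library at a time gave 1 to 3 members higher and 0 to 3 lower for sgDNAJC17 in ES8, 0 to 5 and 0 for sgDNAJC17 in Rh30, 0 to 1 and 0 in ES8 ΔRRM against sgCTL, 11 to 14 and 1 to 2 in Rh30 ΔRRM against sgCTL, 0 to 4 and 0 to 1 in ES8 ΔRRM against the knockdown, 7 to 12 and 1 to 2 in Rh30 ΔRRM against the knockdown, 12 to 15 and 12 to 14 between the lines, 0 to 2 and 0 to 1 for the interaction with the knockdown, and 4 to 5 and 1 to 3 for that with ΔRRM. Over all genes, such fits called 2502 to 7994 in the ES8 knockdown and 3066 to 6500 in the Rh30 knockdown. Of the single calls of members, 379 held and 77 were lost in such fits. Under the other alternatives 534 held, 71 were lost and 2 reversed: *H2BC5* between the lines was -0.088 on the log2 scale with GC and length offsets and -0.086 with these and the replicate block.

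A fold change of at least 2 left 0 higher and 1 lower in the ES8 knockdown, 1 higher in the Rh30 knockdown, 4 higher and 0 lower in Rh30 ΔRRM against sgCTL, 0 higher in ES8 ΔRRM against the knockdown, 1 higher and 0 lower in Rh30 ΔRRM against the knockdown, 6 higher between the lines, 0 lower for the knockdown interaction, and 2 higher and 1 lower for that with ΔRRM. An adjusted p under 0.01 left 1 and 0 in the ES8 knockdown, 0 higher in Rh30, 1 lower in Rh30 ΔRRM against sgCTL, 0 higher in ES8 ΔRRM against the knockdown, 5 and 1 in Rh30 ΔRRM against the knockdown, 0 lower for the knockdown interaction and 1 lower for that with ΔRRM. Library totals in place of TMM gave 1 higher in the Rh30 knockdown, 5 and 4 in Rh30 ΔRRM against the knockdown and 2 higher for the ΔRRM interaction, with shifts of the median of all genes of -0.17 to -0.28 in the comparisons that moved by over 0.1. With no filter, 5 were higher in the Rh30 knockdown, 1 higher in ES8 ΔRRM against sgCTL, and 1 higher and 1 lower for the interactions with the knockdown and ΔRRM. A minimum of 10 counts in every library left 1 lower in the ES8 knockdown, 4 lower between the lines and 1 higher for the knockdown interaction. A fit of all 18 libraries gave 0 higher in the Rh30 knockdown, 1 lower in Rh30 ΔRRM against sgCTL, 1 lower in ES8 ΔRRM against the knockdown and 1 lower for the ΔRRM interaction. DESeq2 and its size factors in edgeR each gave 1 lower in Rh30 ΔRRM against sgCTL. DESeq2 gave 1 higher for the knockdown interaction, and the size factors 1 lower in ES8 ΔRRM against the knockdown.

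The replicate block gave 2 and 2 for sgDNAJC17 in ES8, 4 and 0 for sgDNAJC17 in Rh30, 1 higher in ES8 ΔRRM against sgCTL, 1 higher for the knockdown interaction and 1 lower for that with ΔRRM. Over all genes, the block called 4140 of 17143 in the ES8 knockdown and 7235 of 15391 in the Rh30 knockdown. GC and length offsets gave 1 higher in the Rh30 knockdown, 8 higher in Rh30 ΔRRM against sgCTL, 5 and 1 in ES8 ΔRRM against the knockdown, 5 higher in Rh30 ΔRRM against the knockdown and 3 higher for the knockdown interaction. With the replicate block as well, these offsets gave 5 lower in the ES8 knockdown, 1 lower in the Rh30 knockdown, 8 higher in Rh30 ΔRRM against sgCTL, 4 and 1 in ES8 ΔRRM against the knockdown, 5 higher in Rh30 ΔRRM against the knockdown and 3 higher for the knockdown interaction. Offsets with the block called 7144 of all 17143 genes in the ES8 knockdown and 6528 of 15391 in the Rh30 knockdown. A length limit of 700 bases put 2 longer genes past the test in ES8 ΔRRM against the knockdown. Without TMM the summed levels were 122 (ES8 sgCTL), 140 (ES8 ΔRRM), 92.0, 98.6 and 107 (Rh30 sgCTL, sgDNAJC17 and ΔRRM) CPM. Without *H2BC12* they were 58.7, 64.9 and 70.3 CPM in ES8 and 71.2, 77.3 and 98.0 CPM in Rh30. The cause of these changes was not tested. Most members have few counts, which limits what can be detected.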
